A study of Mus musculus with 4 samples.

Results

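The splicing of 10 genes for chromatin regulators and transcription factors was followed exon by exon. The genes were Kdm1a, Phf21a, Ehmt2, Mef2a, Mef2c, Mef2d, Tcf12, Tcf4, Foxp1 and Nfia. Their exon trios, each a middle exon with its neighbors, were found by matching chromosome, strand, the length of the middle exon and both intron lengths to the GENCODE mouse annotation, release M21. This gave 253 trios of 228333 in the tables, with 178 distinct middle exons: 17 labelled as cassette exons, 148 labelled as constitutive, 10 alternative 3′ splice sites, 3 alternative 5′ splice sites and 0 retained introns. Where both libraries of a stage held 20 or more junction reads, an exon was tested, which left 175 middle exons at E18 and 177 at P1.

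The series measured polyA+ RNA of mouse brain with and without the splicing regulator PTBP2 by RNAseq, in 4 libraries of 1 per group. At embryonic day 18, the Nestin-KO (NesKO) and WT libraries came from whole brain, 2 brains for each library, and controls were littermates. These libraries were not strand specific. At postnatal day 1, the Emx-KO (EmxKO) and WT libraries came from the dissected cortex of 1 animal each, again littermates, and were strand specific. In the NesKO, Cre recombinase is expressed in neural progenitors and their progeny through the Nestin promoter, and in the EmxKO through the Emx1 locus, active in dorsal forebrain progenitors, so other cells of the cortex keep the gene. All 4 groups share a mixed background that the labels give as C56Bl/6:129S2. Since a group has 1 library, the spread between animals is not known, and each test below compares reads of 2 libraries, not conditions. Stage, tissue, Cre line, pooling and strand protocol change together between E18 and P1 and cannot be told apart.

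The libraries held 48367448 and 50188724 reads on distinct junctions at E18 (NesKO and WT) and 83110007 and 83394001 at P1 (EmxKO and labelled WT). As a check of the labels, skipping of Ptbp2 exon 4, the floxed exon, was 100% in the NesKO, 0.225% in the E18 WT, 82.6% in the EmxKO and 31.5% in the library labelled WT at P1. Because of that last value, this library is written as labelled WT, and every P1 difference is a contrast with a library in which exon 4 was skipped in part. Summed levels of 5 neuronal markers were 0.791 and 0.774 of the control level in the NesKO and the EmxKO, with 4 of 5 lower in the NesKO (Stmn2 was at 1.08) and 5 of 5 lower in the EmxKO. Of the mid- and hindbrain list, 3 of 7 genes had named junctions. Their sum was 10.5 and 13.7 RPM (junction reads scaled to library size) at E18 but 0.277 and 0.300 in the P1 cortex, with Hoxb3 at 0 in both P1 libraries.

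PTBP2 binds pyrimidine-rich RNA and represses many exons while neurons mature. KDM1A (LSD1) removes methyl groups from histone H3 and works with CoREST, and PHF21A (BHC80) is a reader protein of the same complex. EHMT2 (G9a) adds methyl groups to histone H3 lysine 9. MEF2 proteins are MADS-box activators of neuronal and muscle genes, and their transcripts carry a pair of exons that exclude each other next to the DNA-binding part and a short acidic β exon further downstream. TCF12 and TCF4 are E proteins, which pair with tissue-specific bHLH factors. FOXP1 is a forkhead repressor, and NFIA a nuclear factor I protein that acts in gliogenesis.

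The exons that carry the comparisons are shown first, from GENCODE transcripts on GRCm38. Capitals mark the exon and lower case the 15 bases of mRNA on each side. The Ehmt2 exon, exon 10 of 28 in Ehmt2-204 at chr17:34905610-34905711, plus strand, was the only cassette exon of the 10 genes that passed 10 points with an adjusted p below 0.05 between knockout and control.
Ehmt2 exon 10, 102 nt: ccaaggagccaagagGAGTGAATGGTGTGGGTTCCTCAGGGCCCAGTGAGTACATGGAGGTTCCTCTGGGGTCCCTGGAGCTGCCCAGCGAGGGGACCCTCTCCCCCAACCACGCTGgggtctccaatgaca
The β exons of the 3 MEF2 genes are the cassette exons of 27 nt or less, at chr7:67244521-67244544 (minus strand), chr13:83654598-83654621 (plus) and chr3:88161781-88161801 (plus).
Mef2a β exon, 24 nt: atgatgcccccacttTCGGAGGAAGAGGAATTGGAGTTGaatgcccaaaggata
Mef2c β exon, 24 nt: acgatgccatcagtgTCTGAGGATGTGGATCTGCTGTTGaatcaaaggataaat
Mef2d β exon, 21 nt: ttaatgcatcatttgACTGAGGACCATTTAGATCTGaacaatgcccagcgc
The exons of Kdm1a (chr4:136582040-136582099, minus strand) and Tcf12 (chr9:71868999-71869070, minus strand) showed the most even mix of inclusion and skipping among the coding cassette exons of the set.
Kdm1a exon 3, 60 nt: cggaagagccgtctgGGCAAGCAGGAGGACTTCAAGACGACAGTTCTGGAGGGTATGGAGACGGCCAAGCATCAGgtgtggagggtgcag
Tcf12 exon 15, 72 nt: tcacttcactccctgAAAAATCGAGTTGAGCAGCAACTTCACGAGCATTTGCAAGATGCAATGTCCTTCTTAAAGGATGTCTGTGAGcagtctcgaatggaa
The 23-nt exon of Phf21a (chr2:92351609-92351631, plus strand) is joined in place of a 164-nt exon downstream.
Phf21a exon, 23 nt: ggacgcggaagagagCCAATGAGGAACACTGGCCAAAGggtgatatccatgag
Each of these exons lies in coding sequence, and none holds a stop codon in the frame of its transcript. All but the Phf21a exon have a length divisible by 3, as do 11 of the 17 cassette exons.

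The levels came before the comparisons. PSI, the percent of transcripts that include the middle exon, is the deposited SpliceTrap estimate. Of 148 constitutive exons, 136 were at a PSI of 95 or more in all 4 libraries. Of 17 cassette exons, 7 were at 90 or more in all 4, 2 were under 10 in all 4, and 8 lay between. The 2 near 0 were a 147-nt exon of Mef2a (0.2 to 1.3) and a 66-nt exon of Tcf4 (0.3 to 1.4).

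**Figure D1:**
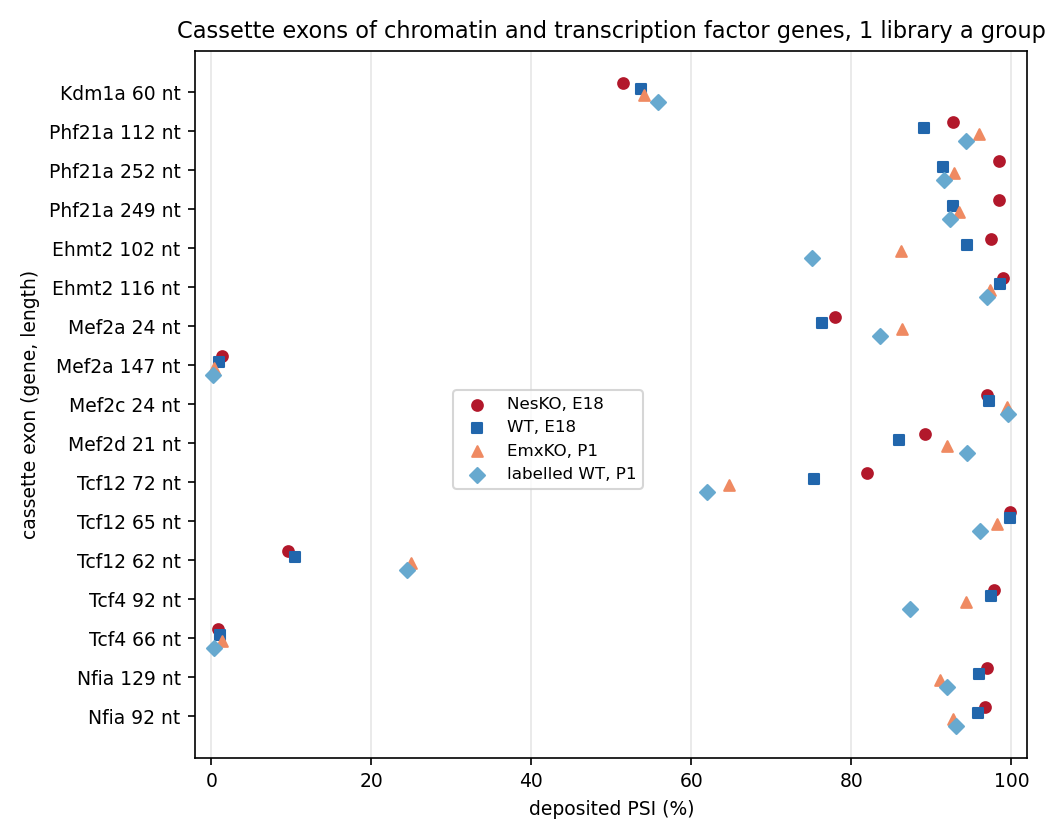
Deposited PSI in percent (horizontal axis) of the 17 cassette exons (rows, by gene and length), with a point for each of the 4 libraries. The Ehmt2 102-nt exon falls from 97.5 in the NesKO to 75.1 in the library labelled WT at P1, while the Kdm1a exon stays between 51.4 and 55.8.

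The first comparison asked which exons of these genes depend on PTBP2 in E18 brain. Of 175 exons, 6 differed by at least 10 PSI points between NesKO and WT, 2 higher and 4 lower (2.12% of all middle exons in the series passed this cutoff, 1.23% higher and 0.894% lower). None of the 6 had an adjusted p below 0.05 (two-sided Fisher's exact test on junction reads, Benjamini-Hochberg over 132260 middle exons), where 0.147% of all exons passed both criteria. Without the cutoff, 1 of the 175 exons had an adjusted p below 0.05 (0.234% of all exons) and 5 an unadjusted p below 0.05 (1.53%). Among the 17 cassette exons, 0 reached 10 points, while 11.0% of all cassette exons did, and 1.94% with an adjusted p below 0.05. The differences of the 17 ran from -2.3 to 7.1 points, with a median of 0.9, and the median over all cassette exons was 0.

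Of the 6 exons past the cutoff, 5 rested on 0 to 7 skipping reads in a library and the other on few reads of its longer form. The 532-nt exon of Nfia was listed at 60.1 (NesKO) and 99.9 (WT) with no skipping read in either library. The 163-nt exon of Tcf12 was at 99.9 and 67.6, again with no skipping read. The 164-nt exon of Phf21a was at 99.9 and 89.0 with 0 and 1 skipping reads, and its 87-nt exon was at 62.8 and 73.0 with 0 and 1. The 66-nt exon of Nfia was at 83.8 and 97.0 with 7 and 2 skipping reads. A 3-nt alternative 3′ splice site of Phf21a was at 9.4 and 24.3, with 3 and 6 reads for the longer form beside 21 and 14 for the shorter.

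In P1 cortex, 2 of 177 exons differed by at least 10 points between the EmxKO and the library labelled WT, 1 higher and 1 lower (1.39% of all middle exons passed, 0.859% higher and 0.529% lower). The exon that fell was the Phf21a 164-nt exon, listed at 41.0 and 52.3 with 2 and 0 skipping reads. The exon that rose was exon 10 of Ehmt2, which also had an adjusted p below 0.05, where 0.194% of all exons passed both. It was the 1 exon of 177 with an adjusted p below 0.05 (0.468% of all exons), and 4 had an unadjusted p below 0.05 (2.43%). The Ehmt2 exon was 1 of 17 cassette exons past 10 points, where 9.51% of all cassette exons were past it, and 2.85% with an adjusted p below 0.05.

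Exon 10 of Ehmt2 is a cassette exon in the linker ahead of the ankyrin repeats, and its inclusion is known to vary during neuronal differentiation. It lies at chr17:35042555-35042656 of mm9, the build of the deposited tables. Its PSI was 97.5 in the NesKO, 94.4 in the E18 WT, 86.2 in the EmxKO and 75.1 in the library labelled WT at P1. Reads that skip it numbered 70, 190, 407 and 523, beside 2470, 3227, 2399 and 1705 reads on its upstream inclusion junction and 1880, 2002, 2510 and 1565 on its downstream one. Inclusion was thus higher in the knockout library at each stage and lower at P1 than at E18, and the 95% Wilson intervals of the junction-read PSI did not overlap (96.1 to 97.5, 92.2 to 94.1, 84.4 to 87.0 and 73.9 to 77.5).

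The PSI difference of Ehmt2 exon 10 was 11.1 points at P1 (Fisher's exact test, adjusted p = 6.64e-16). At E18 the difference was 3.1 points, under the cutoff of 10, with an adjusted p of 2.94e-06. By junction reads, the differences were 10.01 points at P1 (95% interval 7.80 to 12.2) and 3.66 at E18 (2.47 to 4.84). With the lower-coordinate inclusion junction alone, the P1 difference was 8.97 points. A Wald test of the difference between the log odds ratios at E18 and P1 gave an adjusted p of 1 for this exon, so a difference between the stages was not shown. Over all reads on Ehmt2 junctions, the EmxKO held 1.34 times the level of the library labelled WT, so the exon and the gene total were both higher there.

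**Figure D2:**
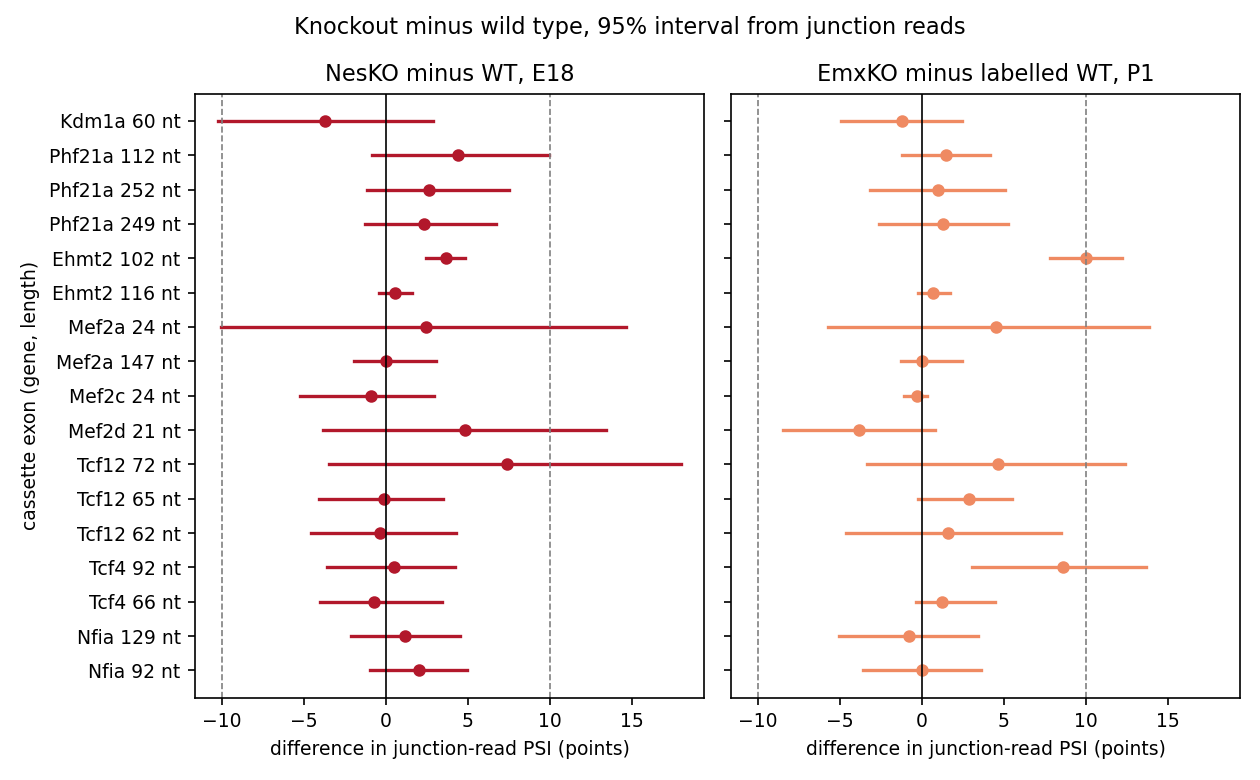
Difference in junction-read PSI, in points, between knockout and control for the 17 cassette exons (rows) at E18 and at P1. Points are differences, bars 95% intervals for counting error, and dashed lines mark 10 points. Exon 10 of Ehmt2 is to the right of 0 in both panels and near 10 points at P1.

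For the 175 exons tested at both stages, 0 had an adjusted p below 0.05 in the Wald test of the difference between the knockout effects, and 4 had an unadjusted p below 0.05 (0.0788% and 1.11% of all exons).

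PSI of the Mef2a β exon was 77.9 in the NesKO, 76.3 in the E18 WT, 86.3 in the EmxKO and 83.6 in the library labelled WT at P1. It was skipped in 32, 41, 21 and 43 reads. The junction-read difference between knockout and control was 2.45 points at E18 (95% interval -10.05 to 14.6) and 4.53 at P1 (-5.72 to 13.9), so a change of 10 points was within the counting error at either stage. The β exon of Mef2c was near full inclusion, at 96.9, 97.2, 99.4 and 99.6, and its knockout differences were -0.90 (-5.22 to 2.95) and -0.30 (-1.06 to 0.317) points. The β exon of Mef2d was at 89.2, 85.9, 91.9 and 94.4. It was 4.85 points higher in the NesKO (-3.81 to 13.4) and 3.81 points lower in the EmxKO by junction reads, for which the interval was -8.45 to 0.807. None of the 3 β exons had an adjusted p under 1 in either knockout comparison (Fisher's exact test).

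The exclusive exons of the MEF2 genes were compared with each other, since neither is skipped as such. In Mef2a, the exon of 132 nt took 71.1% of the pair's reads in the NesKO, 66.4% in the E18 WT, 73.0% in the EmxKO and 66.8% in the library labelled WT, the remainder going to the 138-nt exon. The shares were higher in both knockout libraries, with adjusted p of 0.885 at E18 and 0.543 at P1 over all such pairs (Fisher's exact test). In Mef2d, the 138-nt exon dominated, and the 135-nt exon took 2.39, 1.53, 1.84 and 2.29%. Mef2c had 16 trios that share exons with its named trios but whose intron lengths differ from the annotation, and its exclusive pair is among them, outside the rule. There the 138-nt exon took 3.09, 2.86, 10.6 and 11.1% beside the 144-nt exon. Knockout and control differed by less than 1 point in Mef2c and Mef2d at both stages. Of the pairs of Mef2a, Mef2d and Phf21a, 0 differed by 10 points at E18 (15.9% of all pairs did, and 2.55% with an adjusted p below 0.05).

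The stage difference of the Mef2c pair depended on the side that was counted. On the upstream junctions the 138-nt exon took 3.19% in the E18 WT and 17.1% in the library labelled WT at P1, and on the downstream junctions 1.63% and 1.200%. No statement on the pair across stages is made from these values.

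Phf21a has a further pair, the 164-nt exon and the 23-nt exon ahead of it. The 164-nt exon took 26.6% of the pair in the NesKO, 33.3% in the E18 WT, 27.8% in the EmxKO and 39.2% in the library labelled WT at P1. The P1 difference was -11.5 points with p = 0.00282 and adjusted p = 0.0532 over all pairs (Fisher's exact test), and 14.7% of all pairs differed by 10 points, 3.53% with an adjusted p below 0.05. On the upstream junctions alone, the shares were 14.1, 16.8, 15.2 and 23.5%, with an adjusted p of 0.0406 at P1 (Fisher's exact test). On the downstream junctions alone, they were 64.8, 68.4, 49.5 and 63.1%, with an adjusted p of 0.0711 at P1 (Fisher's exact test). By each of the 3 counts the share of the 164-nt exon was lower in the knockout library than in the control, while its level and its side of the threshold at P1 depended on the junctions counted. Deposited PSI of the 164-nt exon, which sets inclusion against skipping, went the other way at E18. There it was 10.9 points higher in the NesKO.

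Kdm1a exon 3 was included at close to equal shares in each library, at 51.4 in the NesKO, 53.7 in the E18 WT, 54.1 in the EmxKO and 55.8 in the library labelled WT at P1. Its junction-read differences were -3.71 (95% interval -10.2 to 2.89) at E18 and -1.23 (-4.92 to 2.47) at P1. At P1 the interval lies inside 10 points on both sides. On the lower-coordinate junction alone, the exon was at 45.9, 44.7, 53.0 and 54.8, which put both P1 libraries above both E18 libraries. The higher-coordinate junction did not give this order. It had 122, 251, 539 and 522 reads beside 212, 297, 732 and 701 skipping reads, with the highest share in the E18 WT. On this junction the knockout difference was -9.28 points at E18 and -0.274 at P1. On the lower-coordinate junction it was 1.23 and -1.88. The other 17 exons of Kdm1a were labelled as constitutive, and 0 of them reached 10 points. Exon 3 was the only cassette exon of Kdm1a among the named trios, so any other cassette exon of the gene was not measured. Outside the rule, Kdm1a had a 12-nt alternative 3′ splice site at a PSI of 2.9, 3.1, 10.8 and 6.7. Its longer form had 5, 7, 94 and 72 reads. The P1 difference was 4.1 points, under the cutoff, with an unadjusted p of 0.0168 (Fisher's exact test).

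Phf21a has 3 cassette exons. The 112-nt exon, in an untranslated part, was at 92.7 and 89.1 at E18 and at 96.0 and 94.3 at P1. Its coding exons of 252 and 249 nt share their end and differ by the 3 nt of an alternative 3′ splice site. They were at 98.5 and 98.4 in the NesKO against 91.4 and 92.7 in the E18 WT, on 3 skipping reads in the NesKO and 6 in the WT. At P1 they lay between 91.6 and 93.4 in both libraries. In deposited PSI, the E18 difference of the 252-nt exon was 7.1 points with an adjusted p of 1 (Fisher's exact test), but by junction reads it was 2.67 points.

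The 72-nt coding exon of Tcf12 was at 82.0 in the NesKO, 75.3 in the E18 WT, 64.7 in the EmxKO and 61.9 in the library labelled WT at P1. It was higher in the knockout library by 7.42 points at E18 (95% interval -3.44 to 18.0) and by 4.68 at P1 (-3.36 to 12.4) by junction reads. The adjusted p was 1 at both stages (Fisher's exact test). The 65-nt exon was at 99.8, 99.8, 98.2 and 96.1, and the 62-nt exon at 9.6, 10.5, 25.0 and 24.5. Knockout and control of a stage were within 2.1 points of each other for both.

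PSI of the Tcf4 92-nt exon was 97.8 in the NesKO, 97.4 in the E18 WT, 94.3 in the EmxKO and 87.3 in the library labelled WT at P1. It was skipped in 8, 12, 16 and 56 reads. The P1 difference was 7.0 points, under the cutoff, with p = 0.00273 and an adjusted p of 0.350 (Fisher's exact test). The 95% interval of the junction-read difference was 3.06 to 13.7 points, and with the upstream inclusion junction alone the PSI values at P1 were 89.9 and 78.1 with an adjusted p of 0.259 (Fisher's exact test). The remaining cassette exons were those of Nfia, 129 nt (96.9, 96.0, 91.1 and 91.9) and 92 nt (96.7, 95.8, 92.7 and 93.1), and the 116-nt exon of Ehmt2 (98.9, 98.6, 97.3 and 96.9), with differences of at most 0.9 points at either stage.

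Foxp1 had no cassette-labelled exon. Its 22 constitutive exons had a PSI of 93.8 or more in all 4 libraries, and knockout and control differed by at most 3.6 points at E18 and 4.4 at P1. It carried 3 tandem 3′ splice sites that add 3 nt, and a 96-nt one with 0 or 1 reads for the shorter form in each library. At E18 the longer form of that site had 6 and 4 reads on the lower-coordinate boundary and 97 and 110 on the other.

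Counted on the lower-coordinate boundary, the first 3-nt site of Foxp1 gave 73.0% of the longer form in the NesKO, 68.0% in the E18 WT, 69.9% in the EmxKO and 71.0% in the library labelled WT at P1. The other two were at 96.8 to 98.5% and 83.6 to 87.1%. Tandem sites of 3 nt in Phf21a were at 48.8, 42.5, 46.4 and 47.5% and at 12.5, 30, 23.8 and 25.3%, the latter on 3 and 6 reads of the longer form at E18. The 3-nt site of Tcf4 was at 94.1 to 95.6%, and the 30-nt site of Ehmt2 at 14.7, 15.1, 13.8 and 16.2%. In Tcf4, a 5′ splice site that adds 12 nt was used in 50.2, 49.8, 40.1 and 39.3% of reads. None of the 13 alternative splice sites had an adjusted p below 0.05 between knockout and control (Fisher's exact test), with the 20-nt site of Mef2a tested at P1 only.

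**Figure D3:**
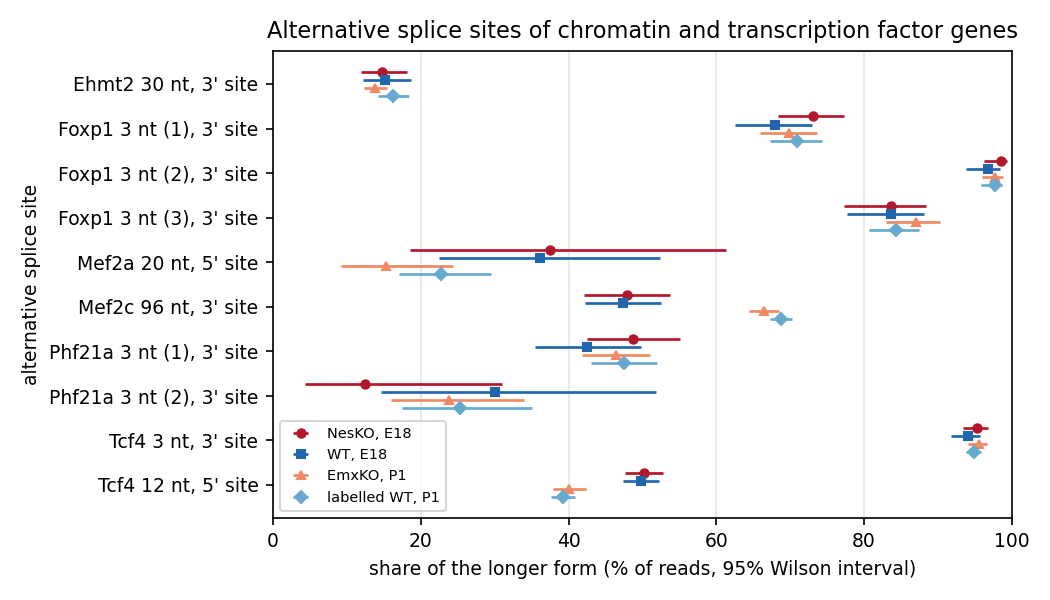
Share of the longer form, in percent of reads with 95% Wilson intervals, at the alternative splice sites that were used in part (rows; numbers in brackets order the sites of a gene by coordinate). Shares are from the lower-coordinate boundary alone, where the Tcf4 12-nt and Mef2c 96-nt sites separate the E18 from the P1 libraries, but in deposited PSI the Mef2c site does not (62.2 and 64.3 at E18, 62.3 and 70.3 at P1).

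The libraries labelled WT were also set side by side to show how these exons differ between P1 cortex and E18 brain, with stage, tissue and protocol not told apart. Of 177 exons, 10 differed by 10 points, 4 higher and 6 lower at P1 (3.85% of all exons passed, 2.03% higher and 1.82% lower), and 3 of them had an adjusted p below 0.05 (0.882% of all exons). Without the cutoff, 8 had an adjusted p below 0.05 (1.85% of all exons) and 20 an unadjusted p below 0.05 (4.83%). The 3 exons past both criteria were cassette exons. Of the other exons past 10 points, the 73-nt exon of Mef2a was listed at 55.7 at E18 and 99.9 at P1. It had 0 skipping reads in both libraries. The 138-nt exon of Mef2a was listed at 99.9 and 67.5 with 0 and 1 skipping reads. By junction reads alone, 7 exons differed by 10 points. Of the 17 cassette exons, 4 passed 10 points, where 20.9% of all cassette exons did, and 8.70% with an adjusted p below 0.05. Of the 3 exclusive pairs, 0 differed by 10 points (28.0% of all pairs, and 15.3% with an adjusted p below 0.05). Ehmt2 exon 10 was 19.3 points lower at P1 (adjusted p = 1.65e-64, Fisher's exact test). The 62-nt exon of Tcf12 was 14.0 points higher (Fisher's exact test, adjusted p = 1.63e-04) and the 92-nt exon of Tcf4 10.1 points lower (adjusted p = 2.62e-04). With the upstream inclusion junction alone, the adjusted p of the Tcf4 exon was 0.203.

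Below the cutoff, the β exons of Mef2c (2.4 points higher at P1, adjusted p = 8.14e-05) and Mef2d (8.5 points higher, adjusted p = 0.00612) differed between these libraries by Fisher's exact test, and that of Mef2a was 7.3 points higher with an adjusted p of 1. The 72-nt exon of Tcf12 was 13.4 points lower with an adjusted p of 1, and with the lower-coordinate junction alone its adjusted p was 0.00753. Kdm1a exon 3 was 2.1 points higher with an adjusted p of 1, and on the lower-coordinate junction alone it was at 44.7 and 54.8 with an adjusted p of 0.00420 (Fisher's exact test). The higher-coordinate junction of this exon went the other way. There 251 reads stood beside 297 skipping reads at E18, and 522 beside 701 at P1, a lower share. The longer form at the Tcf4 12-nt site was 49.8% at E18 and 39.3% at P1 on the lower-coordinate boundary (Fisher's exact test, adjusted p = 5.59e-10) and 47.2 and 37.3 in deposited PSI. At the Mef2c 96-nt site the size of the difference depended on the boundary. On the lower-coordinate one, 171 reads of the longer form stood beside 190 of the shorter at E18 and 2472 beside 1122 at P1, or 47.4% and 68.8%. On the other boundary the longer form had 342 and 2718 reads, and the deposited PSI was 64.3 and 70.3, a difference of 6.0 points. The stage comparison shares the library labelled WT at P1 with the EmxKO comparison and the E18 WT with the NesKO comparison, so they are not independent.

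Reads on distinct junctions, scaled to the library (RPM), gave a level for each gene. Fewer cells of a type and less RNA per cell cannot be told apart in these bulk libraries. At E18 the NesKO level of the 10 genes was between 0.744 and 1.11 of the WT level, so 0 were 1.5-fold lower (5.59% of all genes) and 0 were 1.5-fold higher (2.43%). In the EmxKO, 4 of 10 were at least 1.5-fold lower, where 16.9% of all genes were, and 0 were 1.5-fold higher (4.03%).

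The 4 genes were Mef2a (40.2 RPM in the library labelled WT and 21.7 in the EmxKO, a fold of 0.540), Mef2c (151.3 and 87.4, 0.578), Tcf12 (167.9 and 87.1, 0.519) and Tcf4 (487.7 and 255.8, 0.525). With the 16 further trios of Mef2c the folds were 0.556 at P1 and 0.670 at E18. The other 6 genes were within 1.5-fold. Kdm1a, Phf21a, Mef2d, Foxp1 and Nfia were between 0.905 and 1.03 of the control level, and Ehmt2 was at 1.34. All 5 neuronal markers were lower in the EmxKO as well, while the summed markers of microglia were at 1.49, of the oligodendrocyte lineage at 1.26, of vessels at 1.16, of astroglia at 1.03, of blood at 0.959, of progenitors at 0.885 and of the pallium at 0.845 of the control level. By gene, 2 were higher and 1 lower (Ptprc) for microglia, and 2 higher and 1 lower (Aqp4) for astroglia. Genes higher and lower were 1 and 2 for blood, 2 and 3 for progenitors and 1 and 3 for the pallium. For the oligodendrocyte lineage and for vessels they were 3 and 0. At E18, the sums were at 1.35 for microglia, 1.31 for blood, 1.13 for progenitors, 0.917 for the pallium, 0.859 for vessels, 0.653 for astroglia and 0.642 for the oligodendrocyte lineage. In the NesKO, 2 genes were higher and 1 lower (Ptprc) for microglia, and 2 higher and 3 lower for progenitors. Genes higher and lower were 3 and 0 for blood, 2 and 2 for the pallium and 1 and 2 for vessels. For astroglia and for the oligodendrocyte lineage they were 0 and 3. The part of cell composition in the folds of the 10 genes was not tested.

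**Figure D4:**
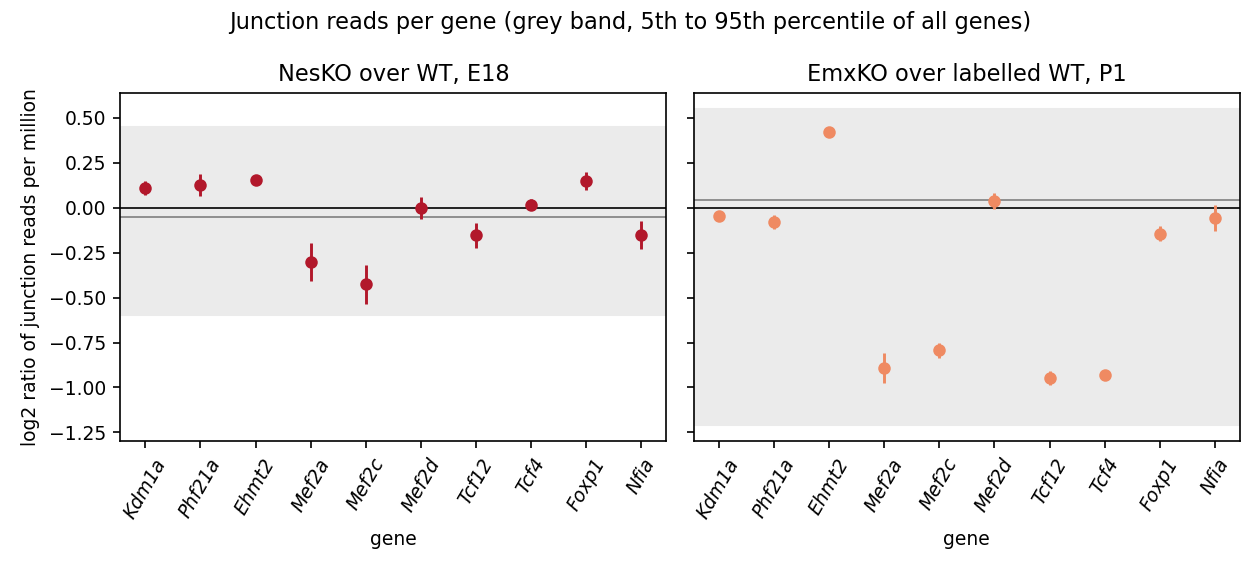
Log2 ratio of junction RPM between knockout and control for the 10 genes at E18 and P1. Bars are 95% intervals for counting error, the grey band spans the 5th to 95th percentile of all genes and the grey line is their median. Mef2a, Mef2c, Tcf12 and Tcf4 lie between -0.95 and -0.79 at P1, inside the band.

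Between the libraries labelled WT, 4 genes were at least 1.5-fold higher in P1 cortex (21.1% of all genes): Mef2c at 4.51, Tcf12 at 2.34, Kdm1a at 1.95 and Phf21a at 1.53 times the E18 level. Nfia was lower, at 0.618 (25.1% of all genes were at least 1.5-fold lower). With the further trios, Mef2c was at 2.92.

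The partners of these proteins were counted by lists of 41 genes of the LSD1-CoREST complex, the G9a-GLP complex, paralogs of the 10 genes, class IIa deacetylases with other MEF2 partners, and E protein partners. Of 495 exons tested at E18, 19 differed by 10 points (2.12% of all exons did), 12 higher and 7 lower, and 0 had an adjusted p below 0.05 as well (0.147%). By list these were 4 of 162 exons (2.47%) for LSD1-CoREST, 7 of 68 (10.3%) for G9a-GLP, 3 of 104 (2.88%) for the paralogs, 5 of 158 (3.16%) for the deacetylases and MEF2 partners and 0 of 3 for the E protein partners. Of 33 cassette exons of the lists, 7 were past 10 points at E18 (11.0% of all cassette exons were). At P1, 8 of 496 exons were past 10 points (1.39% of all exons), 1 higher (0.859%) and 7 lower (0.529%), and 1 had an adjusted p below 0.05 as well (0.194%). That was an intron of 289 nt in Zmym3, a zinc finger subunit found with LSD1 and CoREST (chrX:98610238-98610526 of mm9, minus strand). It was retained at a PSI of 32.0 in the NesKO, 38.5 in the E18 WT, 25.5 in the EmxKO and 37.6 in the library labelled WT at P1. The P1 difference was -12.1 points (Fisher's exact test, adjusted p = 7.08e-06). It depended on the boundary that was counted. Spliced reads numbered 669 in the EmxKO and 428 in the library labelled WT. On the lower-coordinate boundary, 113 and 70 unspliced reads stood beside them, close to equal shares. The higher-coordinate boundary had 461 and 591, a lower share in the EmxKO.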

How the data were processed

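For 4 RNAseq libraries, the authors estimated exon inclusion with SpliceTrap from reads on exon trios. The deposited inclusion ratio is a fraction, taken in percent as PSI. The deposited junction reads are raw counts, and the deposited coverage signal per exon was not used. The authors' notes name mm9, which was taken as the build of the tables, whose starts count from 0. Of 228333 trios, the one with the most junction reads stood for each middle exon. Junction-read PSI used the mean of both inclusion junctions. Inclusion reads of short exons lay mostly on the lower-coordinate junction (a median of 87.3% for exons of up to 30 nt, 50% above 100 nt). How reads over both junctions are listed is not given in the sources used here, so that junction alone was tried too, an alternative chosen after seeing the data. For alternative splice sites it gave the printed shares. It is called upstream above for plus-strand genes. A call was 10 PSI points. Fisher's exact tests compared 2 libraries, with Benjamini-Hochberg adjustment over all middle exons. The Wald test added 0.5 to each count. The Wilson and difference intervals, at the 95% level, and the limit that a count of 0 allows (3 reads, or 0.444 to 0.840% at the median of 357 to 675 junction reads per cassette exon) cover counting error only. Exons given in full were those passing 10 points and an adjusted p below 0.05 at either stage, cassette exons of 27 nt or less, Ehmt2 exon 10, exclusive MEF2 pairs, and otherwise the cassette exon of a gene with the largest difference. Other cassette exons and sites were added after their values were seen, as was the 1.5-fold limit on gene levels. No cassette exon passed 10 points at both stages, so no search for like patterns was made. The members and lists were chosen with earlier results of these data known. Gene levels needed at least 100 reads in both libraries. Python 3.11.15, numpy 2.4.6, pandas 2.3.3, scipy 1.17.1, numba 0.67.0 and matplotlib 3.10.9 were used, and the tests were tested on simulated data.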

Additional observations from a re-analysis of the deposited data

How the results depend on the processing

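No paired analysis was possible because each group has 1 library. The counts of exons past 10 points, 6 at E18, 2 at P1 and 10 between the libraries labelled WT, moved by over 1.5 times under 5 settings. With PSI from junction reads alone, there were 3 at E18. At 20 points there were 2, 0 and 6. With an adjusted p below 0.05 as well there were 0, 1 and 3, and the same numbers with the lower-coordinate inclusion junction in that test. The cutoff of 10 points stayed on deposited PSI there, and by that junction's own PSI Ehmt2 exon 10 was under it at P1. The 3 exons between the libraries labelled WT were not the same ones. The Tcf4 92-nt exon dropped out and the Tcf12 72-nt exon came in. Among cassette-labelled exons there were 0 at E18 and 1 at P1. The uncorrected ratio and other read minimums left the 3 counts within 1.5 times. All trios, the trio with the most skipping reads and the added trios of the same genes did so for E18 and P1, and were not run between the libraries labelled WT. The difference of the Phf21a 87-nt exon at E18 changed sign, from -10.2 to 1.64 points by junction reads, 5 by the lower-coordinate junction and 0.980 by the higher-coordinate one, with 0 and 1 skipping reads. Exon 10 of Ehmt2 stayed higher in the knockout under every setting tried for it, at 2.81 to 5.08 points at E18 and 8.97 to 11.1 at P1. The 0 exons with stage-dependent knockout effects remained 0 in the 4 alternatives. Centring gene ratios on the median of all genes left the 4 genes lower at P1. Depth limits the 24-nt exon of Mef2a, the 21-nt exon of Mef2d, the 72-nt exon of Tcf12 and the Kdm1a exon at E18, where their intervals reach 10 points. At P1, 4 intervals reach 10 points, those of Ehmt2 exon 10, the Mef2a 24-nt, the Tcf12 72-nt and the Tcf4 92-nt exon. The higher-coordinate junction alone was tried for the cassette exons and those past 10 points. There 34 differences stayed within counting error of the main value, 9 moved beyond it and 1 changed sign. On this junction the Mef2a 24-nt difference at P1 was 20.99 points and that of the Mef2d 21-nt exon was -9.21. At E18 the Tcf12 72-nt difference was 15.8 points and that of the Kdm1a exon was -9.28.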

Other observations

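The deposited PSI and the junction reads did not describe the same level for some constitutive exons of these genes. Of 175 to 178 exons with enough reads, 4 or 5 per library were over 20 points apart, and 0 of the 17 cassette exons were. Of 246 to 251 trios, 3 or 4 per library were listed under 5 while over 50% of junction reads included the middle exon. Mef2a gives an example at its 138-nt exclusive exon, which was listed at 99.9 in both E18 libraries, 60.4 in the EmxKO and 67.5 in the library labelled WT at P1, with 0, 0, 0 and 1 skipping reads.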
